A study of Mus musculus with 7 samples.

Results

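The genes for the subunits of respiratory complexes I, II, III and V were described in lesional skin of bleomycin-treated mice with and without OX40L. Members were the named genes whose symbol begins with Nduf, Uqcr or Atp5, or is Sdha, Sdhb, Sdhc or Sdhd, without the complex I assembly factors (Ndufaf symbols) and without pseudogenes. The rule gave 58 of the 23185 named genes, 35 of complex I, 4 of complex II, 7 of complex III and 12 of complex V. The subunits encoded by mitochondrial DNA were not analysed here, nor were Uqcrb, Atp5g1 and Atp5g2. Cyc1, which encodes cytochrome c1 of complex III, falls outside the rule by its symbol and was read beside the members.

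The samples were 4 from ox40l-/- mice and 3 from ox40l+/+ mice, here called knockout and wild type, with 1 Affymetrix array each. All were male, of C57BL/6 background and 9 weeks old, and all were injected with bleomycin for 3 weeks, so no untreated skin enters the comparison. OX40L is a costimulatory ligand encoded by Tnfsf4, and bleomycin injection is a common way to scar mouse skin. The Tnfsf4 probe set was dim and did not separate the genotypes, with 3.35, 2.82, 2.81 and 2.81 on knockout replicates 1 to 4 and 2.53, 2.60 and 3.65 on wild type replicates 1 to 3, so it does not check the labels. How the deletion was made, and whether each sample is a different animal, is not given in the labels. If it is not, the p-values below measure a spread that is partly technical.

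The respiratory chain sits in the inner mitochondrial membrane. Complex I takes electrons from NADH and complex II takes them from succinate, both pass them to ubiquinone, and complex III hands them on to cytochrome c. Complexes I and III pump protons, and complex V, the ATP synthase, lets them flow back through its membrane part, Fo, to drive ATP formation in its head, F1. These genes are used by nearly every cell, and their transcripts are most plentiful in muscle, brown fat and other oxidative tissue, while skin also holds many glycolytic cells.

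Values are the authors' log2 expression values, on which a difference of 1 is a doubling. Probe sets of different genes have their own brightness, so levels are compared between arrays and never between genes. The members' probe sets were bright, with a median rank among the named genes between the 96.1 and the 98.1 percentile on the 7 arrays. The arrays were not alike. Values spread most on wild type replicate 1 (SD 1.72), least on wild type replicate 3 (SD 1.22) and by an SD of 1.38 to 1.48 on the other 5. Array pairs with wild type replicate 1 or 3 correlated at 0.761 to 0.914 across probe sets and the other pairs at 0.956 to 0.968. Results are therefore given with and without these arrays. The epidermal and dermal markers of skin were bright on every array, keratinocyte markers at a median percentile of 95.8 to 98.5 and fibroblast markers at 86.3 to 96.5, but skeletal muscle markers were as bright, at 97.02 to 98.79. In whole skin, fewer cells of a type and less RNA per cell cannot be told apart.

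None of the 58 members differed between genotypes after adjustment. All 58 had an adjusted p of 0.9995 in limma, where 1 of the 23185 genes, 0.00431%, passed the 0.05 threshold. Before adjustment 1 of 58 members passed 0.05, namely Ndufs3, against 436 of all genes or 1.88%. The genotypes did not overlap in 1 member, again Ndufs3, against 1.91% of all genes, so both counts were near the background. Knockout means were higher in 41 members and lower in 17, with differences from -0.73 to 1.02 and a median of 0.16. Over all genes 51.7% were higher and the median was 0.01. Over the brightest 10% of genes 54.9% were higher and the median was 0.05. Of those 2319 genes, 74 passed an unadjusted p of 0.05 in limma as higher and 19 as lower. The standard errors of the members ran from 0.135 to 0.892, with a median of 0.37 against 0.23 over all genes and 0.40 over the brightest 10% of genes. In 36 of 58 the 95% confidence interval reached beyond a doubling or a halving. That held for 6102 of all 23185 genes and for 1598 of the brightest 2319, so wide intervals were not particular to the members.

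**Figure D1:**
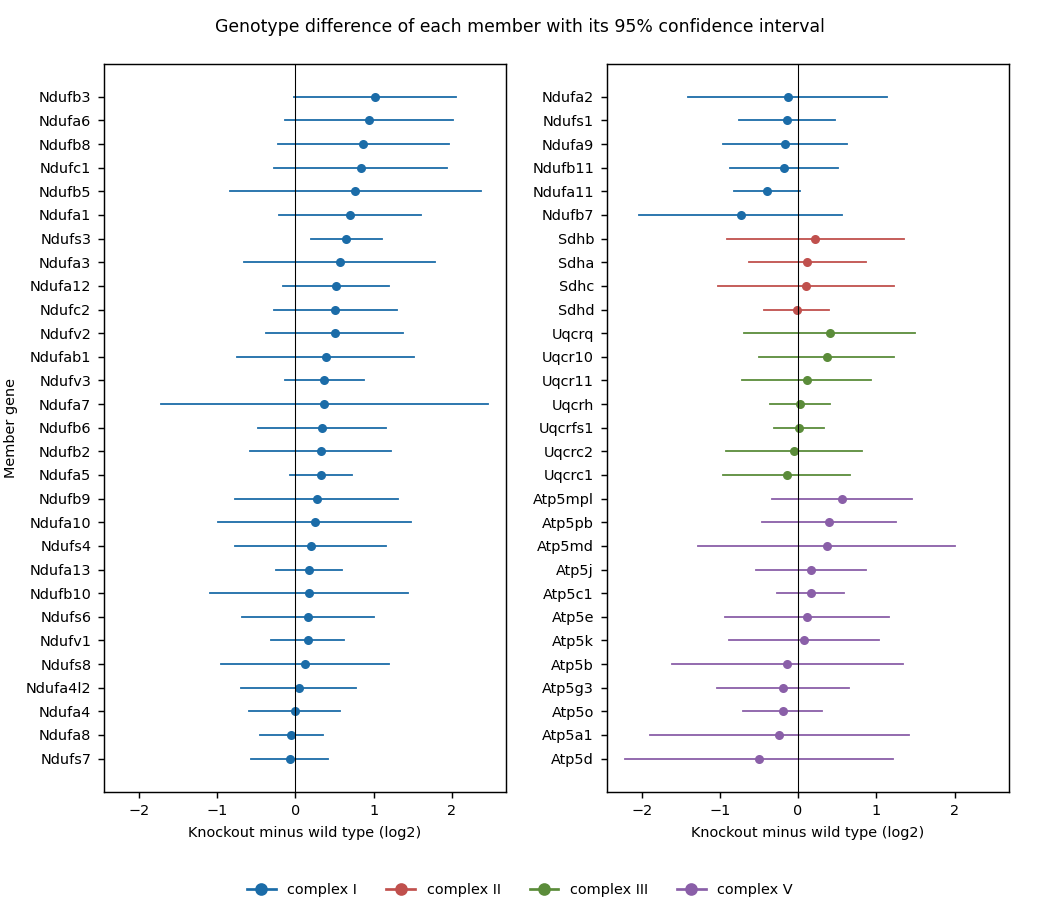
Knockout minus wild type difference (log2) of each of the 58 members, with limma's 95% confidence interval as a horizontal line, coloured by complex and ordered by size within each complex. Ndufs3 is the member whose interval, 0.20 to 1.11, does not reach 0.

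The members did not spread evenly over the arrays. The 4 knockout arrays and wild type replicate 2 were close together, while wild type replicate 1 lay high for many members and wild type replicate 3 lay low for nearly all. Wild type replicate 3 was the lowest of the 7 arrays in 51 of 58 members, or 87.9%, whereas it was lowest in 19.2% of all genes and in 67.8% of the brightest 10% of genes. Wild type replicate 1 was the highest array in 33 members, or 56.9%, against 25.3% of all genes and 52.0% of the brightest 10%. Wild type replicate 2 lay inside the range of the knockout arrays in 44 of 58, against 14501 of all 23185 genes and 1325 of the brightest 2319. The wild type SD was above the knockout SD in 54 of 58 members, or 93.1%, and in 76.9% of all genes. The members' median SDs were 0.82 in wild type and 0.22 in knockout, and those of the brightest 10% of genes were 0.87 and 0.25.

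**Figure D2:**
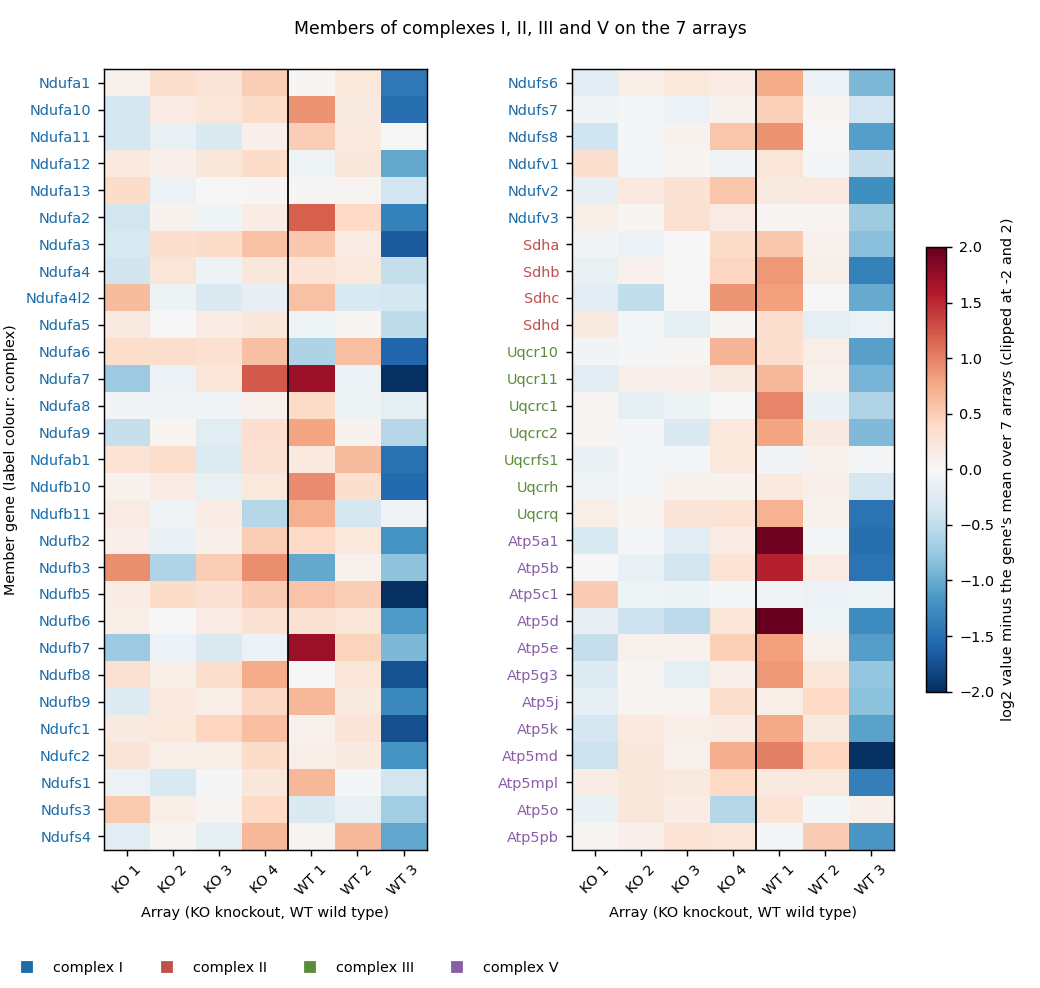
Log2 value of each member on each array minus that gene's mean over the 7 arrays, knockout (KO) left and wild type (WT) right of the black line, in alphabetical order within each complex. Wild type replicate 3 is the lowest array in 51 of 58 rows, and wild type replicate 1 is the highest in 33.

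The complexes shared this order of arrays but not its size. The median deviation of the complex I members from their own means was 0.09, 0.05, 0.12 and 0.34 on knockout replicates 1 to 4, and 0.39, 0.18 and -1.03 on wild type replicates 1 to 3. For complex II the values were -0.10, -0.07, 0.00 and 0.40 in knockout and 0.68, 0.04 and -0.92 in wild type. Knockout replicate 4 was the highest knockout array in both, as in complexes III and V. For complex III they were -0.06, -0.03, 0.02 and 0.20 in knockout and 0.66, 0.09 and -0.88 in wild type. For complex V they were -0.17, 0.08, 0.08 and 0.24 in knockout and 0.79, 0.17 and -1.13 in wild type. Wild type replicate 3 was thus the lowest array for each complex by a wide gap, and wild type replicate 1 the highest, by least in complex I and by most in complex V. The genotypes overlapped in all 4 complexes.

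**Figure D3:**
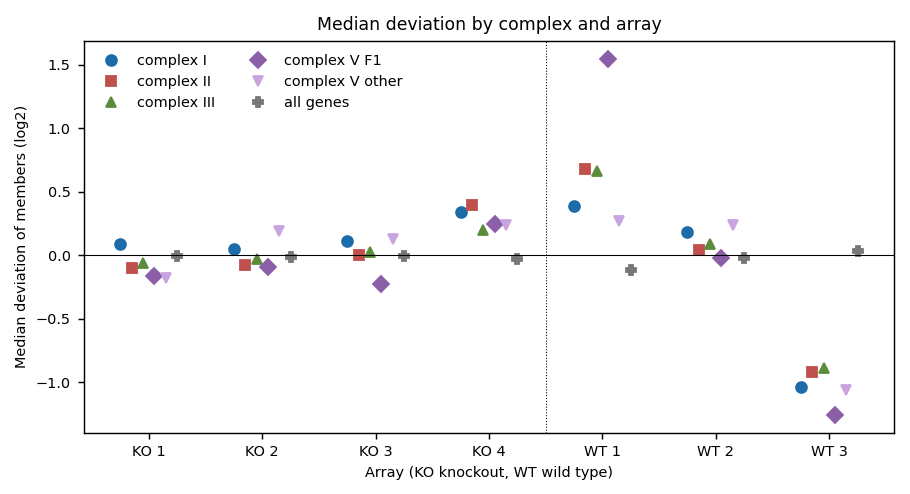
Median deviation (log2) of the members of each complex on each array, with complex V split into its F1 subunits and the rest, and all named genes in grey. All member groups lie between -1.25 and -0.88 on wild type replicate 3, and the F1 subunits stand at 1.55 on wild type replicate 1.

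Complex I members had the largest median difference, 0.27, with 26 higher and 9 lower of 35. The median was 0.11 for complex II (3 higher, 1 lower), 0.03 for complex III (5 higher, 2 lower) and 0.09 for complex V (7 higher, 5 lower). These signs rested on wild type replicate 3. Without it the medians were -0.17, -0.32, -0.22 and -0.42 for complexes I, II, III and V, and 44 of the 58 members were lower in knockout. Over all genes the median was 0.08 in that fit. The brightest 10% of genes lay higher on wild type replicates 1 and 2, as the members did. Their median was 0.45 for replicate 1 minus the knockout mean and -0.11 for the knockout mean minus replicate 2. Without wild type replicate 1 the medians of the 4 complexes were 0.59, 0.48, 0.33 and 0.49. With both left out, so that wild type replicate 2 stood alone against the knockout arrays, they were 0.01, 0.01, -0.03 and -0.13. Without knockout replicate 4 the medians fell to 0.19 for complex I, -0.01 for complex II, 0.01 for complex III and 0.00 for complex V. Complex I kept the highest value of the 4 complexes in each of the 7 fits with 1 array left out. With wild type replicates 1 and 3 left out together, complexes I and II were both at 0.01. With a skeletal muscle score as a covariate, given below, complex III lay above complex I.

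**Figure D4:**
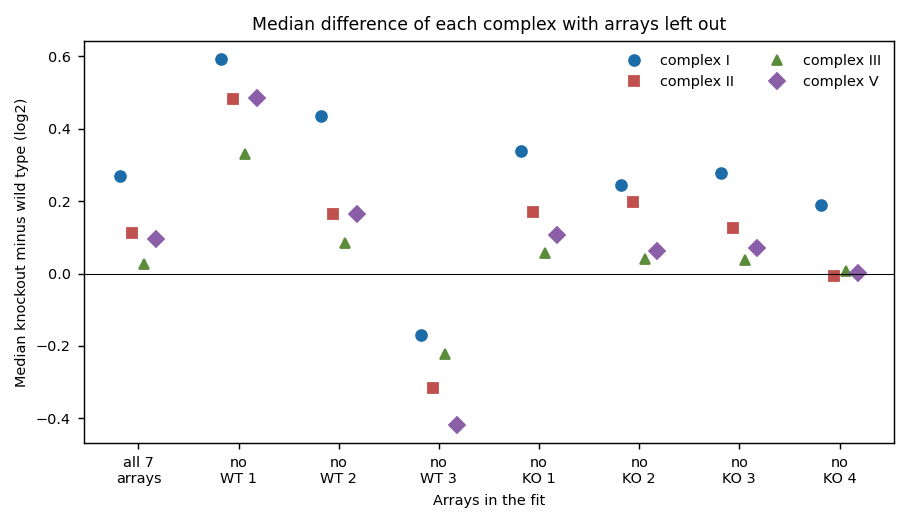
Median knockout minus wild type difference (log2) of each complex with all 7 arrays and with each array left out in turn. The medians are between -0.42 and -0.17 without wild type replicate 3 and at or above -0.01 in the other fits.

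Scaling also bore on the count at an unadjusted p under 0.05. After quantile normalization, which gives all arrays the same distribution, 11 members passed, all higher in knockout, 10 of complex I and 1 of complex V, where 3.06% of all genes passed. With the SD of each array as a covariate, 23 members passed, 21 of them higher, of which complex I supplied 19 of the 23 and complexes II, III and V 1, 2 and 1, where 7.61% of all genes passed. No member passed after adjustment in either fit, the smallest adjusted p in limma being 0.999 and 0.634. Without wild type replicate 3, 6 of 58 members passed at an unadjusted p under 0.05, of which 1 was higher, against 12% of all genes.

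Within complex I, the core includes the subunits that carry the flavin and the iron-sulfur clusters of the electron path. Of the core subunits, 6 nuclear ones were measured. Ndufs3, a core subunit of the arm that faces the matrix, had log2 values of 5.82, 5.43, 5.35 and 5.70 on knockout replicates 1 to 4 and of 5.01, 5.15 and 4.61 on wild type replicates 1 to 3. Every knockout array was above every wild type array. The difference was 0.65 (SE 0.19, 95% confidence interval 0.20 to 1.11), with an unadjusted p of 0.011 and an adjusted p of 0.9995 in limma. It stayed between 0.49 and 0.76 with single arrays left out and was 0.43 without wild type replicates 1 and 3. Weights estimated for each array gave an adjusted p of 0.0251 in limma at a difference of 0.41, but that fit put nearly all wild type weight on 1 array.

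Ndufv1, which binds NADH and the flavin, had 5.83, 5.48, 5.55 and 5.44 in knockout and 5.74, 5.47 and 5.04 in wild type, a difference of 0.16 (SE 0.20). Ndufv2, its iron-sulfur partner, had 6.59, 6.95, 7.04 and 7.31 in knockout and 6.93, 6.95 and 5.53 in wild type, a difference of 0.50 (SE 0.37). Both were lowest on wild type replicate 3 and overlapped between genotypes. Ndufs1, the large iron-sulfur subunit of the NADH module, had 4.84, 4.65, 4.92 and 5.19 in knockout and 5.62, 4.92 and 4.59 in wild type, a difference of -0.14 (SE 0.26). Ndufs7 and Ndufs8 hold the iron-sulfur clusters nearest to ubiquinone. Ndufs7 had 7.01, 7.03, 6.93 and 7.13 in knockout and 7.53, 7.09 and 6.68 in wild type, a difference of -0.08 (SE 0.21). Ndufs8 had 5.10, 5.48, 5.58 and 6.06 in knockout and 6.40, 5.49 and 4.41 in wild type, a difference of 0.12 (SE 0.46). In these last 3 genes the highest and the lowest array were both wild type. The median difference of the 6 core members was 0.14, against 0.33 for the 29 other complex I members, with ranges of -0.14 to 0.65 and -0.73 to 1.02.

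The upstream regions of 4 members are shown because nuclear genes of the respiratory chain are known to be served by NRF1 and by the ETS factor GABP. Ndufs3 is the member whose genotypes did not overlap, Ndufa6 is a complex I member that was low on both outlying wild type arrays, and Sdhb and Atp5k hold both motifs. The RefSeq promoter table of build GRCm38.p6 gives 300 bases around each start site, most of them upstream, and 49 of the 58 members were in it. Capitals mark GCGCATGC, the core of the NRF1 motif, and CCGGAAG, the ETS core that GABP reads, on either strand, and in Atp5k overlapping NRF1 matches share their letters.
Ndufs3 (chr2:90904672-90904971, minus strand): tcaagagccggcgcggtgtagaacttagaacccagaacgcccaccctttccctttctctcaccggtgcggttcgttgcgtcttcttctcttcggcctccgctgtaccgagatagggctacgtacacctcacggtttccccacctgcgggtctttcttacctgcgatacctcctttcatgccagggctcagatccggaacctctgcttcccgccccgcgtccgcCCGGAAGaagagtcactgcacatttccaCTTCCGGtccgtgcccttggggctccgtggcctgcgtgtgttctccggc
Ndufa6 (chr15:82354242-82354541, minus strand): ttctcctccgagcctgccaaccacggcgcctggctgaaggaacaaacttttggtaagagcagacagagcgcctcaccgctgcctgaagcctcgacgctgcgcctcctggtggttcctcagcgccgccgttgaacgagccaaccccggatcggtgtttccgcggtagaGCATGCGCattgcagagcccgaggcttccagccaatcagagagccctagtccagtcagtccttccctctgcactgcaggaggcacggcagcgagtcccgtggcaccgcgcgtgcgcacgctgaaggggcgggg
Sdhb (chr4:140961021-140961320, plus strand): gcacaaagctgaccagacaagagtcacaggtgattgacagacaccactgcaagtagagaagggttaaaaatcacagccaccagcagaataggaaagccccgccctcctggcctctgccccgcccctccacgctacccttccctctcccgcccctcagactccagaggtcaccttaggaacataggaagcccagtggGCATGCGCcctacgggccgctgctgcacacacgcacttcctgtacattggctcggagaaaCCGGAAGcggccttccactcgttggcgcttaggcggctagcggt
Atp5k (chr5:108434350-108434649, minus strand): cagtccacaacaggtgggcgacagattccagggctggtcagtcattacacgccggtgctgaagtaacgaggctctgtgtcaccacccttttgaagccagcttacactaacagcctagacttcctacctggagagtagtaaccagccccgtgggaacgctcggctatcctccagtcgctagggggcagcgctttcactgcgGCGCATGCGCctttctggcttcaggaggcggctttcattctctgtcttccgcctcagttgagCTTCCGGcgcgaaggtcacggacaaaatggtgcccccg

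The NRF1 core was found in 7 of the 49 member promoters, or 14.3%, and in 3.05% of the 27025 genes with a promoter in the table. The ETS core was found in 12 members, or 24.5%, and in 9.93% of all. By complex, the NRF1 core stood in 3 of 31 members of complex I, 1 of 3 of complex II, 2 of 5 of complex III and 1 of 10 of complex V, and the ETS core in 4, 2, 2 and 4. AAGATGG, the core of the YY1 motif, was in 9 members, or 18.4%, against 7.28%. GGGCGG, the SP1 box, was in 42.9% of members against 38.2%, and TATAAA, the TATA box, in 10.2% against 15.7%. Both strands were searched and a gene with several start sites counted once. The median GC content was 58.7% in the members and 52.8% in all genes of the table. A match is a string of letters, and the arrays say nothing on binding. The regulators themselves, in a list of 15 genes of mitochondrial biogenesis that includes Nrf1, Gabpa, Gabpb1, Yy1 and Tfam, had a median difference of -0.01, with 7 higher and 8 lower and 0 passing at an unadjusted p under 0.05.

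The accessory subunits of complex I surround the core and serve its assembly and stability. Ndufb3 had the largest difference of all members, with 6.03, 4.50, 5.61 and 6.04 in knockout and 4.09, 5.19 and 4.29 in wild type. Knockout replicate 2 lay inside the wild type range, and the difference was 1.02 (SE 0.44, unadjusted p = 0.053 in limma). Ndufa6 had 9.20, 9.21, 9.16 and 9.45 in knockout and 8.23, 9.45 and 7.26 in wild type, a difference of 0.94 (SE 0.46). Without wild type replicates 1 and 3 these differences were 0.35 and -0.19. Ndufa5 had 8.15, 7.97, 8.12 and 8.20 in knockout and 7.89, 8.01 and 7.46 in wild type, a difference of 0.33 (SE 0.17). The knockout arrays spanned 0.29 in Ndufa6 and 0.23 in Ndufa5, and each overlapped wild type through replicate 2.

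Other accessory members leaned the opposite way. Ndufb7 had 6.53, 7.13, 6.96 and 7.14 in knockout and 8.96, 7.70 and 6.35 in wild type, a difference of -0.73 (SE 0.55) that was -0.09 without wild type replicate 1 and -1.39 without replicate 3. Ndufa11, a membrane-arm subunit, had 4.10, 4.29, 4.14 and 4.53 in knockout and 4.92, 4.62 and 4.43 in wild type, a difference of -0.40 (SE 0.18, unadjusted p = 0.059 in limma). Only knockout replicate 4 lay above the lowest wild type array of Ndufa11. Ndufb11, encoded on the X chromosome, was dim, with 2.26, 2.03, 2.24 and 1.53 in knockout and 2.80, 1.76 and 2.03 in wild type, a difference of -0.18 (SE 0.30). Its values lay below the median of all probe sets on each array.

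Ndufa7, Ndufb5 and Ndufab1 were added after their values were seen. Ndufa7 had the widest spread of all members, with 4.33, 4.94, 5.29 and 6.29 in knockout and 6.76, 4.94 and 2.83 in wild type, a difference of 0.37 (SE 0.89). Ndufb5 had 8.34, 8.56, 8.48 and 8.70 in knockout, 8.76 and 8.68 on wild type replicates 1 and 2, and 5.82 on wild type replicate 3, a difference of 0.76 (SE 0.68). All its arrays but wild type replicate 3 lay within a narrow band, and that array lay far below it. Ndufab1, the mitochondrial acyl carrier protein, which also serves fatty acid and iron-sulfur cluster synthesis, had 5.60, 5.69, 5.05 and 5.64 in knockout and 5.53, 5.96 and 3.84 in wild type, a difference of 0.38 (SE 0.48).

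Ndufa4, named as a complex I subunit but since placed with complex IV, had 9.89, 10.52, 10.19 and 10.52 in knockout and 10.55, 10.50 and 9.81 in wild type, a difference of -0.01 (SE 0.25). Its paralog Ndufa4l2, known as a hypoxia-induced gene, had 4.97, 4.23, 4.04 and 4.17 in knockout and 4.92, 4.04 and 3.99 in wild type, a difference of 0.04 (SE 0.31). Ndufa4l2 was high on 1 array of each genotype, knockout replicate 1 and wild type replicate 1, and Ndufa4 was low on knockout replicate 1 and wild type replicate 3.

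Complex II is succinate dehydrogenase, the enzyme shared by the respiratory chain and the tricarboxylic acid cycle, and all 4 of its subunits were measured. Sdha, the flavoprotein that oxidises succinate, had 5.77, 5.71, 5.83 and 6.18 in knockout and 6.36, 5.91 and 4.99 in wild type, a difference of 0.12 (SE 0.32). Sdhb, the iron-sulfur subunit, had 7.18, 7.41, 7.32 and 7.75 in knockout and 7.44 on wild type replicate 2, between 8.18 on replicate 1 and 5.97 on replicate 3, a difference of 0.22 (SE 0.48). For both, the knockout arrays and wild type replicate 2 fell together between the other wild type arrays. Sdhc and Sdhd anchor the complex in the membrane. Sdhc had 5.79, 5.50, 5.99 and 6.87 in knockout and 6.82, 5.99 and 4.99 in wild type, a difference of 0.10 (SE 0.48), knockout replicate 4 being as high as wild type replicate 1. Sdhd had 4.77, 4.56, 4.40 and 4.62 in knockout and 4.93, 4.41 and 4.48 in wild type, a difference of -0.02 (SE 0.18), and it was not lowest on wild type replicate 3. Its 95% confidence interval, -0.43 to 0.40, was the narrowest of the 4.

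In complex III, Uqcrfs1 encodes the Rieske iron-sulfur protein and was the steadiest member. It had 4.84, 4.95, 4.95 and 5.18 in knockout and 4.92, 5.04 and 4.95 in wild type, a difference of 0.01 (SE 0.14, 95% confidence interval -0.31 to 0.33). The core proteins Uqcrc1 and Uqcrc2 varied more. Uqcrc1 had 4.80, 4.54, 4.64 and 4.73 in knockout and 5.72, 4.61 and 4.14 in wild type, a difference of -0.15 (SE 0.35). Uqcrc2 had 7.17, 7.10, 6.85 and 7.35 in knockout and 7.93, 7.32 and 6.25 in wild type, a difference of -0.05 (SE 0.37). In both, wild type replicate 1 was above and replicate 3 below all knockout arrays. Cyc1, outside the rule, showed the same order, with 7.01, 6.99, 6.55 and 7.23 in knockout and 7.40, 7.01 and 6.32 in wild type, a difference of 0.04 (SE 0.28).

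The small subunits of complex III were higher in knockout by their means. Uqcrq had 7.15, 7.06, 7.28 and 7.29 in knockout and 7.72, 7.11 and 5.54 in wild type, a difference of 0.40 (SE 0.47). Uqcr10 had 8.52, 8.55, 8.61 and 9.27 in knockout and 8.91, 8.71 and 7.50 in wild type, a difference of 0.36 (SE 0.37). Uqcr11 and the hinge protein gene Uqcrh differed by 0.11 (SE 0.35) and 0.03 (SE 0.16), with ranges over the 7 arrays of 7.22 to 8.80 and 7.20 to 7.73. The genotypes overlapped in all 7 complex III members.

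In complex V, 3 of the 5 F1 genes were far above the knockout arrays on wild type replicate 1. Atp5a1 and Atp5b encode its alpha and beta subunits, which hold the nucleotide sites. Atp5a1 had 6.24, 6.52, 6.31 and 6.69 in knockout and 8.48, 6.52 and 5.04 in wild type, a difference of -0.24 (SE 0.71). Atp5b had 7.23, 7.09, 6.87 and 7.51 in knockout and 8.78, 7.39 and 5.76 in wild type, a difference of -0.14 (SE 0.63). Atp5d, the delta subunit of the central stalk, had 5.13, 4.87, 4.77 and 5.54 in knockout and 7.49, 5.20 and 4.04 in wild type, a difference of -0.50 (SE 0.73). In these 3 genes wild type replicate 1 was 2.04, 1.61 and 2.41 above the knockout mean, and Ndufb7, at 2.02, was the other member more than 2 above it. Without wild type replicate 3 the 3 differences were -1.06, -0.91 and -1.27, and without replicate 1 they were 0.66, 0.60 and 0.46.

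The other F1 genes lay closer to the knockout mean on that array. Atp5e, the epsilon subunit, had 8.98, 9.53, 9.53 and 9.92 in knockout and 10.25, 9.53 and 8.34 in wild type, a difference of 0.11 (SE 0.44). Atp5c1, the gamma subunit that turns inside the head, had 4.92, 4.32, 4.31 and 4.36 in knockout and 4.35, 4.28 and 4.32 in wild type, a difference of 0.16 (SE 0.18). Its values were nearly flat apart from knockout replicate 1. The median deviation of the 5 F1 genes was -0.16, -0.09, -0.23 and 0.25 in knockout and 1.55, -0.02 and -1.25 in wild type, against 0.27 on wild type replicate 1 for the 7 other complex V members.

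Atp5g3 encodes subunit c, which forms the rotating ring of Fo. It had 8.39, 8.69, 8.45 and 8.74 in knockout and 9.51, 8.88 and 7.87 in wild type, a difference of -0.19 (SE 0.36). The peripheral stalk holds the head still. Atp5pb, subunit b, had 6.88, 6.92, 7.10 and 7.06 in knockout and 6.80, 7.34 and 5.66 in wild type, a difference of 0.39 (SE 0.36) that was -0.35 without wild type replicates 1 and 3. Atp5j, subunit F6, had 3.68, 3.92, 3.92 and 4.21 in knockout and 3.99, 4.26 and 3.04 in wild type, a difference of 0.17 (SE 0.30). Both were highest on wild type replicate 2. Atp5o, which encodes the protein that joins the stalk to the head, had 7.03, 7.38, 7.31 and 6.60 in knockout and 7.44, 7.14 and 7.26 in wild type, a difference of -0.20 (SE 0.22), and its lowest array was knockout replicate 4.

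Among the small membrane subunits, Atp5mpl had 8.71, 8.80, 8.76 and 8.97 in knockout and 8.76, 8.76 and 7.20 in wild type, a difference of 0.57 (SE 0.38). Atp5md and Atp5k, added after their values were seen, had a similar low on wild type replicate 3. Atp5md had 7.61, 8.25, 8.12 and 8.76 in knockout and 9.04, 8.46 and 5.97 in wild type, a difference of 0.36 (SE 0.70). Atp5k, subunit e, had 10.43, 10.96, 10.90 and 10.92 in knockout and 11.53, 10.94 and 9.71 in wild type, a difference of 0.07 (SE 0.41). The RefSeq table lists pseudogene loci named after the member with the ending -ps for 6 members. There were 4 for Atp5k, 2 for Uqcrh and 1 each for Atp5c1, Atp5pb, Ndufa12 and Ndufab1. Pseudogenes under other names were not counted. Near-identical copies can share signal on an array.

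Set against the knockout mean of each gene, wild type replicate 3 was low in nearly all members while wild type replicate 1 split them. Wild type replicate 3 was below all knockout arrays in 52 of 58 members. That held for 5220 of all 23185 genes and for 1665 of the brightest 2319, the top 10%. Wild type replicate 1 was above all knockout arrays in 33 and below all of them in 9, 8 of complex I and 1 of complex V. It was above in 6478 of all genes and 1287 of the brightest 2319, and below in 10164 and 520. The bright genes were thus split on this array as well. Among the members it lay below in Ndufb3 by 1.45 and in Ndufa6 by 1.02 and in Ndufs3 by 0.56. The median of wild type replicate 1 minus the knockout mean was 0.27 for complex I, 0.63 for complex II, 0.53 for complex III and 0.75 for complex V, and that of wild type replicate 3 was -1.24, -0.96, -0.86 and -1.12.

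**Figure D5:**
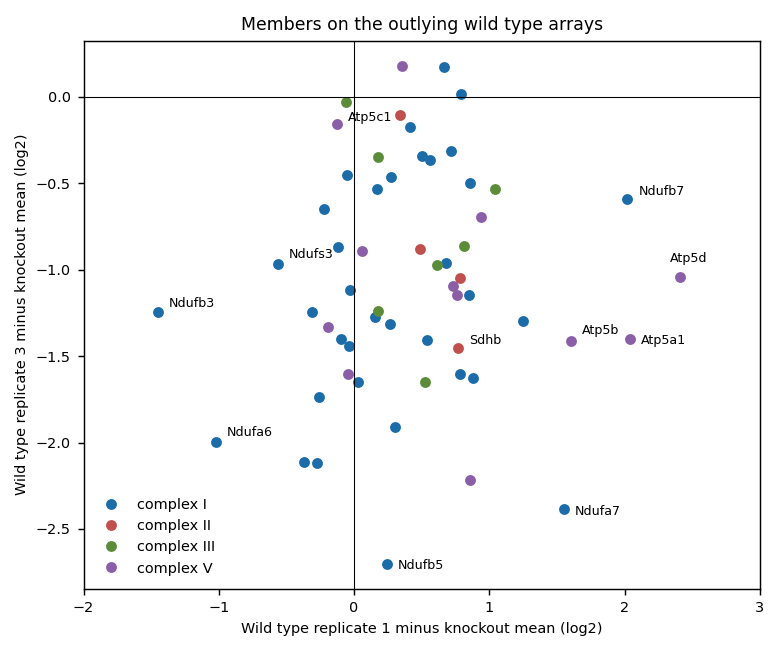
Each member's log2 value on wild type replicate 1 (horizontal) and on wild type replicate 3 (vertical) minus its mean over the 4 knockout arrays, coloured by complex. Most points lie below 0 on the vertical axis, and Atp5d, Atp5a1 and Ndufb7 lie beyond 2 on the horizontal axis, with Ndufb3 and Ndufa6 beyond -1.

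Complex IV, cytochrome c oxidase, completes the chain and was read as a neighbour. Of 16 measured subunits 13 were higher and 3 lower, with a median of 0.18. After adjustment 0 passed, and at an unadjusted p under 0.05 in limma there were 3, where 1.88% of all genes passed. These 3 were the muscle isoforms Cox7a1 (1.09, SE 0.29), Cox6a2 (0.97, SE 0.35) and Cox8b (0.80, SE 0.31). On wild type replicate 1 the complex IV median deviation was 0.10, against 0.39 to 0.79 for the other 4 complexes, and on wild type replicate 3 it was -0.98. Without wild type replicates 1 and 3 the differences of Cox7a1, Cox6a2 and Cox8b were 0.44, 0.13 and 0.09, and the complex IV median was 0.03.

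Neighbouring pathways were read from lists of known genes. Of 27 assembly factors 15 were higher and 12 lower, with a median of 0.11. The 12 measured tricarboxylic acid cycle genes had 5 higher and 7 lower and a median of -0.06, and Cs, citrate synthase, had 5.51, 5.66, 5.75 and 5.81 in knockout and 7.21, 5.83 and 5.55 in wild type, a difference of -0.52 (SE 0.38) that was -0.01 without wild type replicate 1. The 76 mitochondrial ribosomal protein genes had 37 higher and 39 lower and a median of -0.01. The 11 measured glycolysis genes had 2 higher and 8 lower, with Hk2 at 4.97 on every array, and a median of -0.21. Against wild type replicate 2 alone the glycolysis median was -0.08. The 5 electron carrier genes had 4 higher and 1 lower and a median of 0.06. In these 5 lists 0 genes passed after adjustment in limma, and at an unadjusted p under 0.05 there was 1, Mrps16 (0.72, SE 0.28), a mitochondrial ribosomal protein gene.

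Markers of other cell types moved over the arrays as well. Skeletal muscle markers, many of them fast-fibre genes, were higher in knockout in 18 of 20 with a median of 0.38. This direction leaned on wild type replicate 3. The markers' median was -1.09 for wild type replicate 3 minus the knockout mean and -0.06 for the knockout mean minus wild type replicate 2. Their median deviation was -0.06, 0.08, 0.16 and 0.57 in knockout and 0.01, 0.23 and -1.002 in wild type. Their median level ran from 7.50 to 7.95 in knockout and from 6.42 to 7.62 in wild type. Knockout replicate 4 was thus the highest and wild type replicate 3 the lowest array for muscle. In complexes I, II, III and V knockout replicate 4 was likewise the highest knockout array and wild type replicate 3 the lowest of all. The brightest 10% of genes showed the same, at 0.17 and -0.80, so this order is not particular to muscle and the members. On wild type replicate 1 muscle stood at 0.01, against 0.39 for complex I and 0.47 for the brightest 10%. Mylpf, a fast-fibre myosin light chain, had 10.21, 10.63, 10.51 and 10.75 in knockout and 9.94, 10.53 and 9.24 in wild type. With the muscle score as a covariate the median difference of the members was -0.16, and it was -0.13, -0.29, -0.12 and -0.38 for complexes I, II, III and V.

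Wild type replicate 3 was low for other cell types too, with median deviations of -0.86 for keratinocyte markers, -0.99 for fibroblast markers, -0.53 for adipocyte markers and -1.11 for sebaceous gland markers. For endothelial markers it was at -0.23, below the other 6 arrays at -0.06 to 0.09. For leukocyte markers it was at -0.01, within their range of -0.17 to 0.13. It was the lowest array in 3 of 9 endothelial and 4 of 10 leukocyte markers. Both lists were dimmer than the keratinocyte and fibroblast lists, at median percentiles of 69.2 to 77.2 and 55.6 to 72.4, so small deviations there do not show that these cell types were spared. Hair follicle markers were at 2.76 on wild type replicate 1 and between -0.87 and -0.13 on the other 6 arrays, and 14 of 14 were lower in knockout, with a median of -1.28. Sebaceous markers were higher in 7 of 9 and adipocyte markers in 7 of 9, with medians of 0.58 and 0.22. Against wild type replicate 2 alone these medians were 0.65 and 0.06. Keratinocyte, fibroblast, endothelial and leukocyte markers had 5 of 12, 5 of 9, 4 of 9 and 4 of 10 higher. No marker passed after adjustment, and before it the sebaceous genes Scd3 (1.21, SE 0.31) and Awat1 (0.98, SE 0.34), the hair keratin gene Krt33b (-0.40, SE 0.17) and the leukocyte gene Itgam (-0.55, SE 0.22) passed 0.05, and these 4 were named after their values were seen. The part of muscle, hair follicle, sebaceous and fat cells in the members' values was not tested.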

How the data were processed

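RNA from 7 skin samples was hybridised to 1 Affymetrix array each, after column extraction with DNase digestion and whole-transcript biotin labelling, per the labels' protocols. The authors deposited log2 values made with RMA, per the submitters' processing notes. The RMA version, probe-set definition and build are not given in the sources used here, and scanner output was not analysed here. The table held 25206 probe sets, of which 23185 had 1 gene symbol in the platform annotation, 0 several and 2021 none, and each named gene had 1 probe set. The values were tested as deposited.

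Genotypes, taken from the sample titles, were compared over all 23185 genes with limma 3.58.1 (lmFit, eBayes, 2 groups, two-sided) in R 4.3.3, with Benjamini-Hochberg adjustment and an adjusted p under 0.05 as the call. A positive difference means a higher knockout mean. Lists are described by counts and medians with no test. Members and lists were chosen with earlier results of these data known. In simulations of this comparison on 23185 genes, 32.0% of changes of 1, 70.0% of 2, 84.4% of 3 and 94.4% of 4 on the log2 scale were called. The changed genes were picked at random, and each gene's simulated noise was independent with the same spread on every array. The joint shifts of wild type replicates 1 and 3 were thus left out. The members' median standard error, 0.37, was also above that of all genes, 0.23. These shares therefore do not say how often changes in the members would be called. The number of arrays limits the precision. Of the 58 members, 16 had the same value on several arrays, as the median polish of RMA can give.

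Named genes were complex II, the measured complex I core, Ndufa4, Ndufa4l2, Uqcrc1, Uqcrc2, Uqcrfs1, F1, subunit c, the 4 smallest p in each direction in complexes I, III and V, members without overlap, Cyc1 and up to 3 genes of each list. Same-numbered samples share no stated source, and their deviations from the group means correlated at -0.09, -0.15 and 0.03 over genes, so replicate numbers were not taken as pairs. The sample codes hold a number and a suffix of unstated meaning, and both were tried as blocks. Other alternatives were filters on the dimmest 30% or 50%, an intensity trend with robust moderation, quantile normalization, median centring, array weights, all probe sets, a muscle score or array SD as a covariate, and arrays left out. Figures used matplotlib 3.10.9 and Python 3.11.15.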

Additional observations from a re-analysis of the deposited data

Results flagged for a closer look

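In 4 members 1 knockout array lay apart from the other 3 by a wide gap for its group's range (Dixon's test at 95%, ratio above 0.829). Chance flags about 1 in 20 groups, and 51 groups were examined. Atp5c1 was at 4.92 on knockout replicate 1 and at 4.31 to 4.36 on the others (ratio 0.910). Uqcr10 was at 9.27 on knockout replicate 4 and at 8.52 to 8.61 on the others (ratio 0.888). Ndufab1 was at 5.05 on knockout replicate 3 and at 5.60 to 5.69 on the others (ratio 0.859). Atp5k was at 10.43 on knockout replicate 1 and at 10.90 to 10.96 on the others (ratio 0.884). The wild type group of 3 was too small for this test.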

How the results depend on the processing

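No member passed an adjusted p under 0.05 in limma in any fit except with array weights, where 3 did: Ndufs3 (0.41, adjusted p = 0.0251), Ndufa11 (-0.37, adjusted p = 0.0217) and Ndufb7 (-0.76, adjusted p = 0.0174). That fit stopped before it converged, with weights of 75.4, 0.106 and 0.109 on wild type replicates 2, 1 and 3, and it called 4032 of all genes. Over all fits the members' smallest adjusted p ran from 0.0174 to 1. Members at an unadjusted p under 0.05 numbered 1 as reported, 11 after quantile normalization (3.06% of all genes), 9 with array weights (31.8% of all genes), 3 with the muscle score (7.53%), 23 with the array SD as a covariate (7.61%), 2 without wild type replicates 1 and 3 (8.73%), and 1 to 6 with single arrays left out (1.07% to 12.02%). As shares of the 58 members, the counts with array weights, with the muscle score and without those arrays were below the share of all genes. The other alternatives gave 1.

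Intensity trend, the filters on dim genes, median centring and all probe sets turned no named gene's sign. The filters on dim genes dropped 1 member. With array weights the sign turned in Sdhc (-0.0023), Sdhd (0.17), Sdha (-0.055), Sdhb (-0.031), Uqcrc1 (0.060), Uqcrfs1 (-0.070), Atp5e (-0.046), Ndufa6 (-0.20), Ndufb11 (0.27), Uqcr11 (-0.031), Uqcrh (-0.088), Atp5pb (-0.34), Atp5j (-0.33), Cyc1 (-0.079), Mylpf (-3.99e-05), Ndufb5 (-0.16), Ndufab1 (-0.47), Atp5k (-0.13) and Atp5md (-0.28). Without wild type replicates 1 and 3 it turned in Sdhd (0.18), Sdha (-0.039), Sdhb (-0.021), Uqcrc1 (0.071), Uqcrfs1 (-0.063), Atp5e (-0.040), Ndufa6 (-0.19), Ndufb11 (0.25), Uqcr11 (-0.034), Uqcrh (-0.088), Atp5pb (-0.35), Atp5j (-0.33), Cyc1 (-0.061), Mylpf (-0.0020), Ndufb5 (-0.16), Ndufab1 (-0.47), Atp5k (-0.14) and Atp5md (-0.27), where the spread of wild type replicate 2 was taken from the knockout arrays. With the muscle score it turned in Sdhc (-0.42), Sdha (-0.25), Sdhb (-0.34), Ndufs8 (-0.39), Ndufa4l2 (-0.0020), Uqcrfs1 (-0.043), Atp5e (-0.39), Uqcr10 (-0.097), Uqcrq (-0.12), Uqcr11 (-0.27), Uqcrh (-0.12), Atp5pb (-0.037), Atp5j (-0.20), Cyc1 (-0.23), Ndufa7 (-0.65), Ndufb5 (-0.081), Ndufab1 (-0.17), Atp5k (-0.37) and Atp5md (-0.52). With quantile normalization it turned in Sdhd (0.072), Ndufs1 (0.0063), Uqcrc1 (0.052), Uqcrc2 (0.049), Atp5a1 (0.0075), Atp5b (0.0013), Atp5e (-0.010) and Atp5k (-0.033), and with the array SD in Sdhd (0.028), Ndufs7 (0.014), Ndufa4 (0.074), Uqcrc1 (0.014), Uqcrc2 (0.12), Atp5a1 (0.11) and Atp5b (0.18). The replicate block, which leaves knockout replicate 4 without a partner, turned Sdhc (-0.17), Ndufs8 (-0.047), Uqcrfs1 (-0.057), Atp5e (-0.030) and Cyc1 (-0.058), gave a member median of 0.10 and called 0 members. The code suffix as a block turned Sdhd (0.024), and the code number as a random block Ndufa4 (0.042), Uqcrc2 (0.030) and Atp5b (0.015). Within arrays whose code lacks the suffix the member median was 0.35 and within those that carry it -0.07. The first hold wild type replicates 1 and 3, and the second hold wild type replicate 2 alone. The suffix therefore cannot be told apart from these outlying arrays.

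With single arrays left out the differences ran from -0.37 to 0.55 in Sdhc, -0.12 to 0.15 in Sdhd, -0.26 to 0.42 in Sdha, -0.39 to 0.71 in Sdhb, -0.37 to 0.15 in Ndufs1, -0.29 to 0.14 in Ndufs7, -0.39 to 0.61 in Ndufs8, -0.033 to 0.32 in Ndufv1, -0.25 to 0.12 in Ndufa4, -0.17 to 0.34 in Ndufa4l2, -0.48 to 0.30 in Uqcrc1, -0.51 to 0.33 in Uqcrc2 and -0.057 to 0.056 in Uqcrfs1. They ran from -1.06 to 0.66 in Atp5a1, -0.91 to 0.60 in Atp5b, -1.27 to 0.46 in Atp5d, -0.40 to 0.55 in Atp5e, -0.63 to 0.19 in Atp5g3, -0.40 to 0.12 in Ndufb11, -0.075 to 0.63 in Uqcr10, -0.22 to 0.87 in Uqcrq, -0.32 to 0.47 in Uqcr11, -0.13 to 0.13 in Uqcrh, -0.076 to 0.76 in Atp5pb, -0.19 to 0.42 in Atp5j and -0.26 to 0.28 in Cyc1. The last were -0.64 to 1.33 in Ndufa7, -0.20 to 1.27 in Ndufb5, -0.25 to 0.81 in Ndufab1, -0.44 to 0.48 in Atp5k and -0.56 to 0.97 in Atp5md. The lowest values came without wild type replicate 3 and the highest without wild type replicate 1 in most of these genes, and the cause was not tested.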
